A study of Mus musculus with 4 samples.

Results

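Ring1B, the ubiquitin ligase subunit of Polycomb repressive complex 1 (PRC1), was measured at the promoters of fibroblast growth factor (Fgf) ligands, their receptors and the genes that dampen or carry out their signal. The cells were primary mouse embryonic fibroblasts of strain C57BL/6, taken at embryonic day 12.5 and used at passage 2, and were either homozygous for Phc2 L307R or wild type. Both genotypes were assayed in the same way, by chromatin immunoprecipitation with a Ring1B antibody and hybridisation of the amplified precipitate and input to promoter arrays (ChIP-on-chip). Phc2, another PRC1 subunit, forms polymers through its SAM domain, and the series title links that polymerisation to PRC1 clustering and gene silencing. The comparison addresses where Ring1B sits when Phc2 carries the change. The arrays themselves do not read polymerisation, clustering or silencing. The sources used here do not give how many embryos went into a culture. The promoters were those whose probes carry a gene name of the forms Fgf with a number, Fgfr1 to Fgfr4, Fgfrl1, Fgfbp, Spry1 to Spry4, Spred1 to Spred3, Dusp4 to Dusp7, Etv1, Etv4, Etv5 or Flrt1 to Flrt3. This gave 43 of 17649 promoters, covered by 1562 of 462572 named probes. Fgf6, Spry3 and Dusp5 were not analysed here. There were 4 arrays, 1 for each genotype on each of 2 array designs that share 0 probes. Design 1 carried 19 of these promoters and design 2 carried 24. Each promoter was therefore measured once per genotype, with no replicate and no p-value.

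Fgf ligands are secreted proteins that bind receptor tyrosine kinases together with heparan sulphate or a Klotho protein, and the receptors signal mainly through Ras and the MAP kinases. The signal switches on its own brakes, the Sprouty and Spred proteins and the MAP kinase phosphatases of the Dusp family, along with the ETS factors Etv1, Etv4 and Etv5, which carry out much of the transcriptional response. Mesenchymal cells, from which fibroblasts derive, make ligands such as Fgf7 and Fgf10 that act on epithelia, while many other ligands are made in particular embryonic signalling centres. PRC1 binds mainly CpG-rich promoters of developmental genes, where Ring1B ubiquitinates histone H2A.

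Values are log2 ratios of Ring1B precipitate to input, centred on the median of each array, so these values cannot show a change common to every promoter. Each promoter was summarised by 3 neighbouring probes no more than 2000 bp apart, namely the trio whose average over the 2 genotypes was highest (its window), and a promoter counted as bound in a genotype if its window mean was at least 1. The SD given is that over the 3 probes, and it covers neither cultures nor precipitations. Probe noise alone gave a window difference an SD of 0.28 on design 1 and 0.25 on design 2. The Phc2 L307R arrays and the wild-type arrays were scanned on different days, and scan day and genotype cannot be told apart. In the input channel, 75.0 and 76.3% of probes exceeded background clearly (the scanner's own call) on the Phc2 L307R arrays and 85.7 and 86.6% on the wild-type arrays (designs 1 and 2). Wild type also exists in 2 versions: the deposited value tables followed the scanner ratios for Phc2 L307R (Pearson r across probes 0.999 on design 1 and 0.999 on design 2), but only with r = 0.854 and 0.891 for wild type. Scanner values are used below, and the plot of differences shows the value-table difference in the same window for every member. Those that moved most are also given in the text. Because both versions share the same Phc2 L307R arrays, the value tables do not repeat the experiment. The arrays measure no RNA, so the cell type could not be checked by expression.

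Fgf pathway promoters carried more Ring1B than the median promoter on the arrays, and in the scanner values they differed little between the genotypes. In Phc2 L307R fibroblasts 33 of 43 were bound, against 39.3% of all promoters, and in wild-type fibroblasts 30 of 43 were bound, against 45.4%. The median window stood at 1.47 in Phc2 L307R and 1.74 in wild type, compared with 0.80 and 0.90 over all 17649 promoters. A window is the highest trio of its promoter, so promoters with more probes have more trios to choose from. Members made up 43 of 17649 promoters and 1562 of 462572 named probes, and the comparison was not matched for probe number. Of the members, 3 promoters, Fgf13, Fgf14 and Fgfbp1, passed the cut-off in Phc2 L307R only, with windows of 1.14, 1.16 and 1.03 against 0.96, 0.95 and 0.42 in wild type, and 0 passed it in wild type only. In the same windows of the value tables, wild type stood at 1.07 at Fgf13, 0.53 at Fgf14 and 1.05 at Fgfbp1. With windows chosen anew there, 32 members were bound in Phc2 L307R and 33 in wild type.

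A bound promoter met the rule of size if its window differed by at least 1 (2-fold) with all 3 probes on the same side of 0. In either genotype 33 members were bound, where 51% of all promoters were, and 0 were lower in Phc2 L307R by this rule, where 3.01% of all bound promoters were, and 1 was higher, where 1.64% were. The scanner-value shares lie near the background. The median difference over the 43 members was 0.0086, with 21 below 0 and 22 above, and that over all promoters was -0.047. In the same windows of the value tables the members' median was -0.088, with 26 of 43 below 0, and the median over all promoters was -0.013. By the same rule in the value tables, 6 of the bound members were lower, namely Fgf5, Fgf8, Fgf9, Fgf11, Fgf15 and Fgf20, where 8.24% of all bound promoters were, and 0 were higher, where 0.585% were. The number bound in Phc2 L307R was lower when dim probes were left out. Input was not well above background at 47 of 129 window probes in Phc2 L307R (36.4%) and at 31 in wild type (24.0%), and with such probes left out 24 members were bound in Phc2 L307R and 29 in wild type. After normexp background correction these counts were 17 and 23. Both settings chose windows anew, the filter from fewer probes, which can itself change a count. The share of all promoters bound under them is not given here, and the cause was not tested. The windows that were best in each genotype alone shared a probe at 26 of 43 members and were identical at 18.

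Single probes along the promoters, not only the windows, showed the wide coverage. Over all members 28.6% of probes reached 1 in Phc2 L307R and 31.0% in wild type, compared with 12.9% and 14.0% of all named probes. Of the member probes that averaged at least 1 over the genotypes, 234 of 460 were lower in Phc2 L307R (50.9%), where 56.8% of all such probes were. Among the secreted ligands the count was 117 of 180 (65%), and among the feedback genes it was 74 of 182 (40.7%). For the carriers and partners it was 10 of 41. Neighbouring probes share DNA fragments and a background, so these counts describe the arrays and were not tested. Fgf5, Fgf15, Fgf18, Fgf20, Fgf23, Fgf8, Fgfr3 and Flrt1 had differences below 0, and Fgf7 one above 0, under all 9 other settings tried, while 15 of 43 members changed sign in the same window of the value tables, and 17 did with windows chosen anew there.

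**Figure D1:**
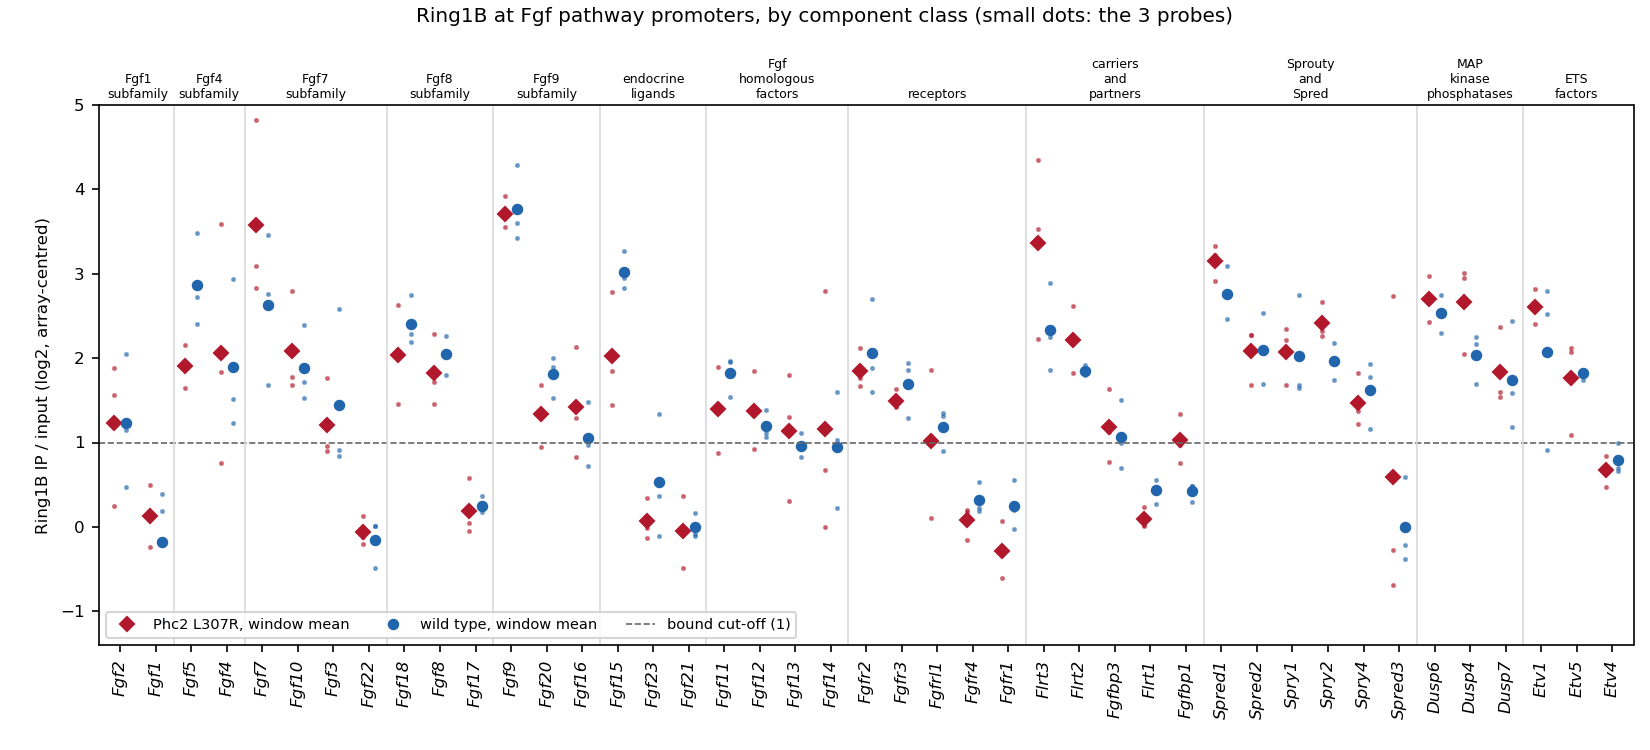
Ring1B precipitate over input (log2, centred on each array's median) at the 43 promoters, ordered by component class. Red diamonds are Phc2 L307R window means, blue circles wild-type window means and small dots the 3 probes of each window. Fgf9 stands highest in both genotypes at 3.71 and 3.77, while Fgf22, Fgf21, Fgf17 and Fgfr1 lie near 0.

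The promoter sequences of 5 members are shown because they span the range of Ring1B and of the difference between genotypes: Fgf9 (highest in both genotypes), Fgf7 and Flrt3 (largest positive differences), Fgf5 (among the 2 lowest differences) and Fgf23 (unbound). Each runs 5′ to 3′ from 250 bases before to 50 after the RefSeq start (GRCm38), with CpG dinucleotides in capitals.
Fgf9: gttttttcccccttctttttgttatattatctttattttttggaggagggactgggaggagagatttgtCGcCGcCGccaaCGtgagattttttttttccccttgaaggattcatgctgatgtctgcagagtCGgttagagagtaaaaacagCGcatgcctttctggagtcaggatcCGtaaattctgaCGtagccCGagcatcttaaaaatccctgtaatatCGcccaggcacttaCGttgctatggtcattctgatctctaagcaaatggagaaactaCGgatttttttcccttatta
Fgf7: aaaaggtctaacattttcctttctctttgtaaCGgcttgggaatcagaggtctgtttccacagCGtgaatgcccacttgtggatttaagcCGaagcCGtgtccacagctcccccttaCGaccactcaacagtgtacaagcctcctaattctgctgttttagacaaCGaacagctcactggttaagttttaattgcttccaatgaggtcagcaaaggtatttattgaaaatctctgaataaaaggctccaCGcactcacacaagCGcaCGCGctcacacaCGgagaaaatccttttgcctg
Flrt3: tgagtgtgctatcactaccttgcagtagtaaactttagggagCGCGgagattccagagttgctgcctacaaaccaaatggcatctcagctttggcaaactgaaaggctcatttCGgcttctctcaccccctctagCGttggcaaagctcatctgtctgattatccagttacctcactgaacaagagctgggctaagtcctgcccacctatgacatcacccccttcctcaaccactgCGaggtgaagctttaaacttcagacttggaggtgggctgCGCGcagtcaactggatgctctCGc
Fgf5: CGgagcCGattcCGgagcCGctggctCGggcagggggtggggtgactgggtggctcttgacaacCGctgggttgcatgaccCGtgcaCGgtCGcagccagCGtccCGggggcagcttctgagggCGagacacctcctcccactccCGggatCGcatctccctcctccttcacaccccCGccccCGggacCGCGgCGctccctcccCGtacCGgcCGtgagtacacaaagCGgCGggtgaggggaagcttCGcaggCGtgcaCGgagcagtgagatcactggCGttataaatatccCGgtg
Fgf23: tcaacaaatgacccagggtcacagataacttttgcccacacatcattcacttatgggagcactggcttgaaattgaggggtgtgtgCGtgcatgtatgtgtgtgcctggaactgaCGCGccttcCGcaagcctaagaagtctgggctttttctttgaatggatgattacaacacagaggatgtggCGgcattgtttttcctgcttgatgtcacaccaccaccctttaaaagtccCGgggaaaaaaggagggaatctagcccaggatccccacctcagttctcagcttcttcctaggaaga

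In GRCm38 these stretches lie at chr14:58072436-58072735 on the plus strand for Fgf9, chr2:126034408-126034707 on the plus strand for Fgf7, chr2:140671427-140671726 on the minus strand for Flrt3, chr5:98253934-98254233 on the plus strand for Fgf5 and chr6:127072652-127072951 on the plus strand for Fgf23. They hold 12 CpGs at Fgf9, 11 at Fgf7, 8 at Flrt3, 29 at Fgf5 and 6 at Fgf23. Of all 32851 starts listed, 12.9% hold at least as many CpGs as Fgf5 and 39.6% as many as Fgf9. No source used here names the build of the array's probe coordinates, so the array windows could not be placed on these sequences.

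The secreted ligands held both the highest and some of the lowest windows of the pathway. Of 17 ligand promoters, 12 were bound in Phc2 L307R and 12 in wild type, with median windows of 1.41 and 1.81. Fgf9, a ligand of gonad, lung and skeletal development, ranked 129 of 17649 promoters in Phc2 L307R and 155 in wild type. Its 3 probes (window at chromosome 14, 57027378 to 57027964, in the coordinates of the files) read 3.55, 3.92 and 3.66 in Phc2 L307R and 4.29, 3.43 and 3.60 in wild type. Of these probes 1 was lower and 2 were higher in Phc2 L307R, and the difference was -0.061 (SD 0.62). The signal was broad: 32 of its 44 probes reached 1 in Phc2 L307R and 30 in wild type. The wild-type window of the value tables stood at 5.23, which made the difference -1.52. The other members of its subfamily, Fgf20 and Fgf16, stood at 1.33 and 1.41 in Phc2 L307R and at 1.81 and 1.06 in wild type.

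Fgf7, the keratinocyte growth factor that mesenchyme sends to epithelia, had more signal in Phc2 L307R. Its window (chromosome 2, 125722729 to 125723046) read 2.83, 4.82 and 3.09 in Phc2 L307R and 1.68, 3.46 and 2.76 in wild type. Each probe was higher in Phc2 L307R, and the difference of 0.95 (SD 0.54) fell short of the size rule. It was 0.97 in the value tables and lay between 0.37 and 0.99 over the 9 other settings. Fgf7 ranked 139 in Phc2 L307R and 450 in wild type. Ring1B was spread over the promoter in both genotypes, since 26 of its 34 probes reached 1 in Phc2 L307R and 27 in wild type. A second maximum, 3.67 kb from the first, averaged 2.94 in Phc2 L307R and 1.54 in wild type, but 2.46 in the wild-type value table. The size of the difference at the second maximum thus depended on which wild-type values were used (1.40 in the scanner values and 0.49 in the value tables).

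Fgf5 and Fgf15 had the lowest differences of all members. Fgf5, which ends the growth phase of hair follicles, read 1.91, 2.15 and 1.64 at its 3 probes in Phc2 L307R and 3.48, 2.41 and 2.72 in wild type (chromosome 5, 98495408 to 98495801). Each probe was lower in Phc2 L307R, and the difference was -0.97 (SD 0.66). Fgf15, an ileal and neural ligand that restrains bile acid synthesis in the liver, read 2.79, 1.85 and 1.45 in Phc2 L307R and 2.83, 2.95 and 3.27 in wild type (chromosome 7, 144706484 to 144706869), with a difference of -0.99 (SD 0.90). At Fgf15 the first probe was nearly equal in both genotypes and the other 2 were lower in Phc2 L307R. Along the promoter 36 of 41 Fgf5 probes and 30 of 37 Fgf15 probes were lower in Phc2 L307R, where 55.2% of all named probes were, and all 19 and 13 probes averaging at least 1 over the genotypes were among them. Neither promoter met the size rule in the scanner values. In the value tables the differences were -2.47 for Fgf5 and -1.85 for Fgf15, and both met the rule there. Both differences were below 0 under all 9 other settings, between -2.47 and -0.49 for Fgf5 and between -1.85 and -0.50 for Fgf15.

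**Figure D2:**
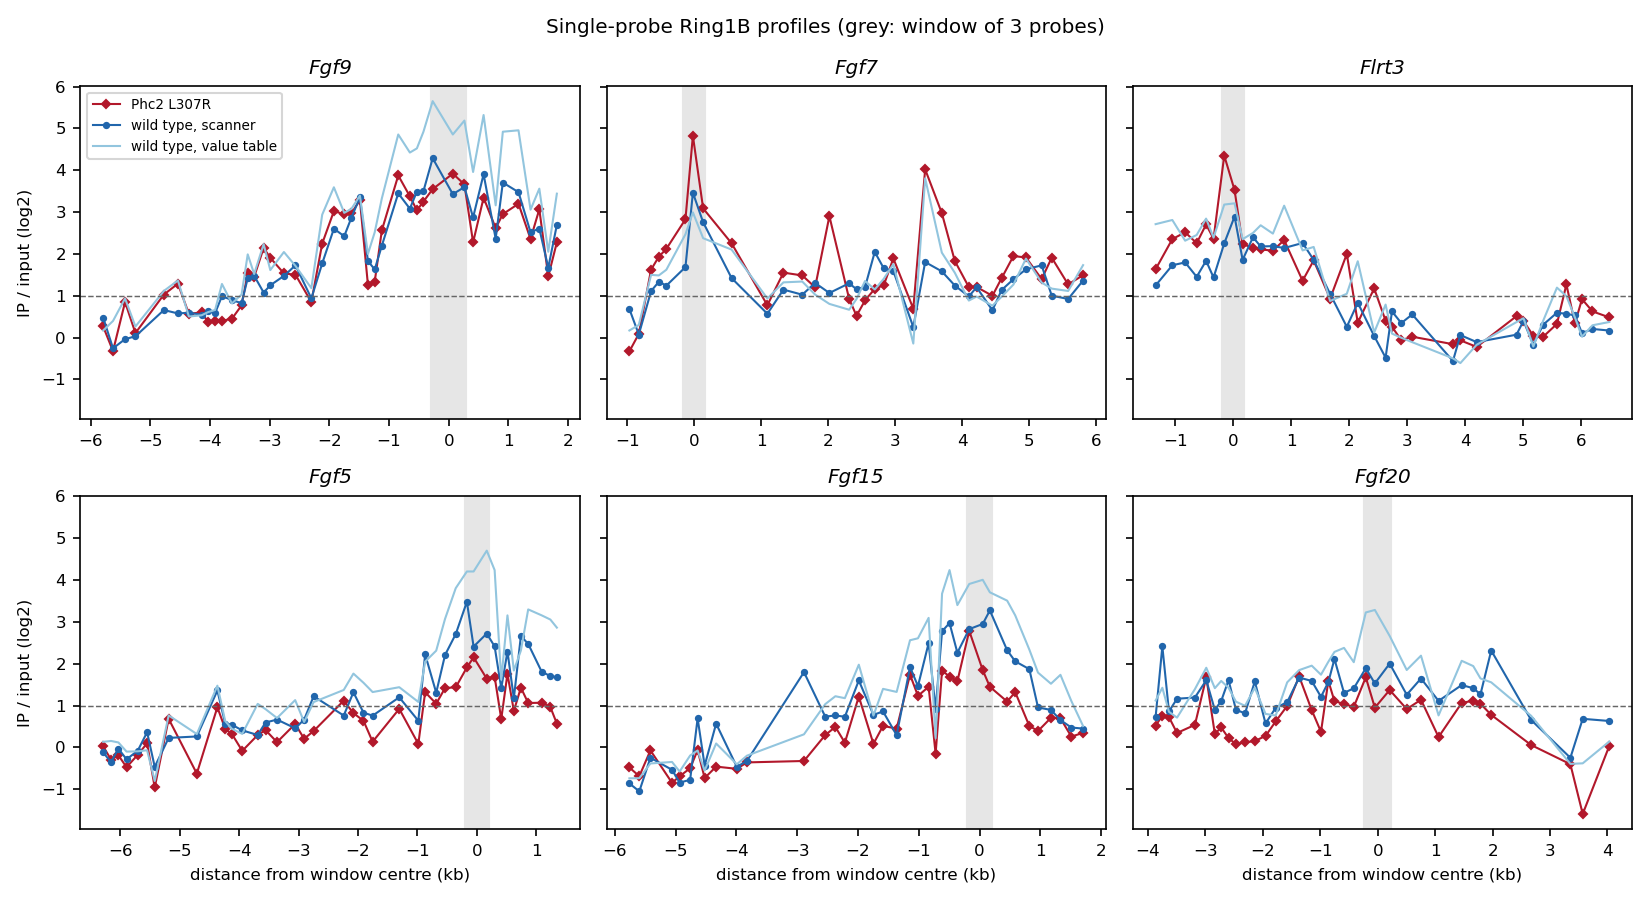
Single-probe Ring1B signal (log2 precipitate over input) against distance from the window centre in kb, for 6 ligand and partner promoters. Red is Phc2 L307R, dark blue wild type from the scanner files and light blue wild type from the value tables; the grey band is the window. At Fgf5 and Fgf20 the red line runs below both wild-type lines at 35 of 41 and 33 of 36 probes, and at Fgf9 at 22 of 44. Of all named probes, 41.1% were lower in Phc2 L307R than in both wild-type versions.

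Fgf15 lies beside Fgf3 and Fgf4 on chromosome 7, where the probes of the 3 promoters span 65.9 kb. Over these 115 probes, 19 reached 1 in Phc2 L307R and 30 in wild type, and the mean over all of them was 0.26 and 0.47. In the scanner values the window of Fgf4 had the opposite sign to those of Fgf15 and Fgf3 (0.17, SD 0.58). It kept that sign in only 4 of the 9 other settings, and the mean over all Fgf4 probes differed by -0.28. Along the promoters 25 of 35 Fgf4 probes and 22 of 43 Fgf3 probes were lower in Phc2 L307R, where 55.2% of all named probes were. Fgf4, a ligand of the early embryo and limb ridge, had a window at 2.06 in Phc2 L307R and 1.89 in wild type, with a peak probe of 3.59 and 2.94, although 5 of its 35 probes reached 1 in Phc2 L307R and 15 in wild type. Fgf3, an inner ear ligand, stood at 1.20 in Phc2 L307R and 1.45 in wild type, with a single high probe in the window in each genotype (1.76 and 2.59). Along the promoter, 2 of its 43 probes reached 1 in Phc2 L307R and 1 in wild type. In the same windows of the value tables all 3 neighbours were lower in Phc2 L307R, by differences of -0.79 at Fgf4 (scanner 0.17), -0.35 at Fgf3 (scanner -0.24) and -1.85 at Fgf15.

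**Figure D3:**
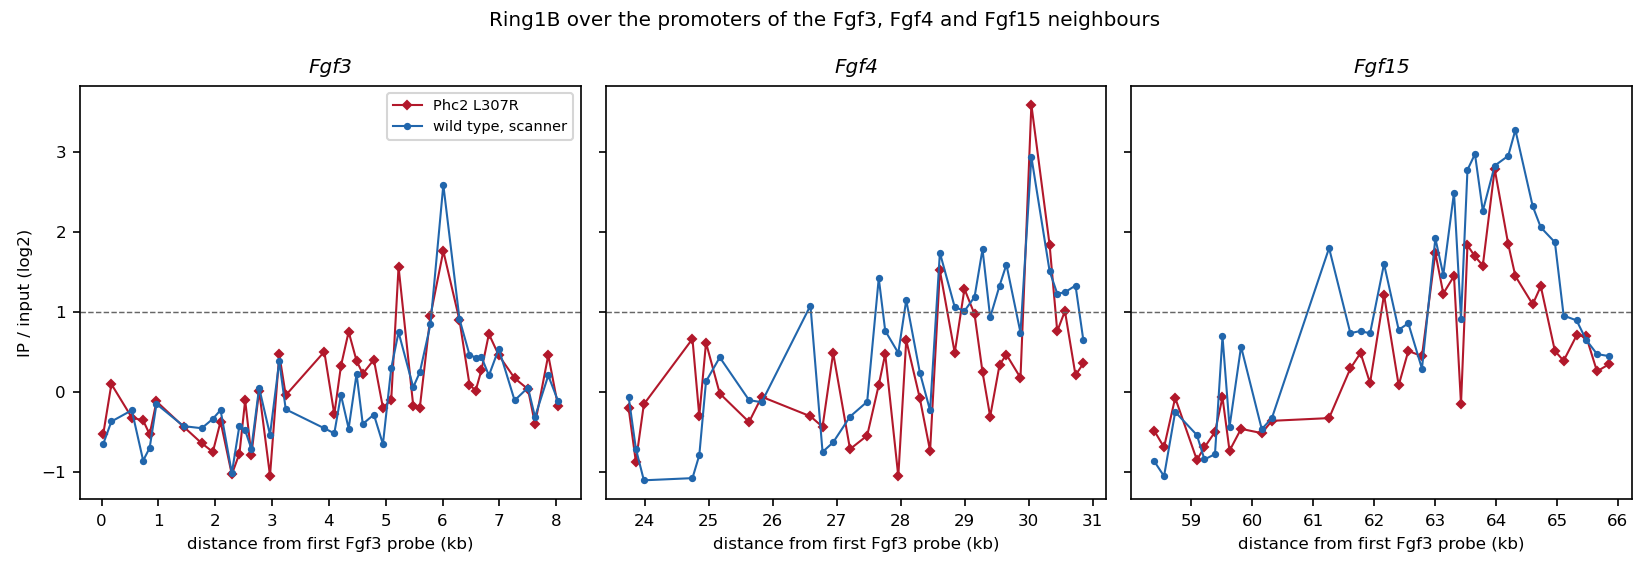
Ring1B signal (log2 precipitate over input) at the probes of Fgf3, Fgf4 and Fgf15 against distance from the first Fgf3 probe in kb, with Phc2 L307R in red and wild type (scanner values) in blue. The wild-type line lies above the Phc2 L307R line over most of the Fgf15 peak, and the Fgf4 and Fgf3 peaks are present in both genotypes. At Fgf4, 5 of 35 probes reach 1 in Phc2 L307R and 15 in wild type.

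In the Fgf8 subfamily, whose members pattern limb, brain and skeleton, Fgf18 read 2.02, 1.45 and 2.63 in Phc2 L307R and 2.74, 2.28 and 2.20 in wild type. Fgf8 read 1.45, 1.71 and 2.29 in Phc2 L307R and 1.80, 2.26 and 2.09 in wild type. At each of them 2 of 3 probes were lower in Phc2 L307R, with differences of -0.37 (SD 0.70) and -0.23 (SD 0.39). Fgf17 was unbound at 0.19 and 0.25. The wild-type value table placed Fgf8 at 3.44, so that its difference there was -1.62. Fgf20, a ligand of the inner ear and kidney, read 1.68, 0.95 and 1.37 in Phc2 L307R and 1.89, 1.53 and 2.00 in wild type, with a difference of -0.48 (SD 0.23), and 33 of 36 probes along the promoter were lower in Phc2 L307R. The value table put wild type at 3.06, which gave a difference of -1.72, past the size rule. Its profile was wide in wild type and less so in Phc2 L307R, as 11 of its 36 probes reached 1 in Phc2 L307R and 25 in wild type. Input at the Fgf20 window was well above background at 0 of 3 probes in Phc2 L307R and 1 of 3 in wild type. Fgf16, an X-linked ligand of heart and brown fat, had a difference of 0.36 (SD 0.71), to which its first probe, at 2.13 in Phc2 L307R and 0.97 in wild type, contributed most. The difference at Fgf16 was above 0 in 6 of the 9 other settings. Input at its window was well above background at 0 of 3 probes in Phc2 L307R and 1 of 3 in wild type.

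Fgf10, which starts limb and lung buds, had a difference of 0.21 (SD 0.18), with probes at 2.80, 1.77 and 1.69 in Phc2 L307R and 2.39, 1.72 and 1.53 in wild type. In the value tables the direction turned, with wild type at 2.46 and a difference of -0.37. Fgf10 was bound in both genotypes, and 18 of its 44 probes reached 1 in Phc2 L307R and 23 in wild type. Fgf2, a ligand that makes cultured fibroblasts divide, stood at 1.23 in Phc2 L307R and 1.23 in wild type, the smallest difference of a bound ligand (0.0086, SD 0.65). Fgf1 (0.12 in Phc2 L307R, -0.18 in wild type) and the brain ligand Fgf22 (-0.066 and -0.15) were unbound. So were the hormone-like ligands Fgf21, made by the liver, at -0.047 in Phc2 L307R and -0.0062 in wild type, and Fgf23, made by bone, at 0.068 and 0.53. Over all 17 ligands the median difference was -0.058 in the scanner values and -0.37 in the value tables, with 10 and 13 of them below 0. Of single ligand probes, 29.1% reached 1 in Phc2 L307R, compared with 36.3% in wild type.

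The 4 Fgf homologous factors, Fgf11 to Fgf14, stay inside the cell and regulate sodium channels of neurons. All 4 were bound in Phc2 L307R, at 1.14 to 1.39, and Fgf11 and Fgf12 in wild type, where the 4 windows ran from 0.95 to 1.82. These lie close to the cut-off, and the difference between the counts rests on Fgf13 (0.18, SD 0.63) and Fgf14 (0.21, SD 0.86), whose SDs exceed their differences. Fgf14 had 1 high probe, with readings of 2.79, 0.0027 and 0.67 in Phc2 L307R and 1.59, 0.22 and 1.03 in wild type. Fgf12 and Fgf14 each have probes at promoters far apart: relative to the best window, the next best lay at -313 kb for Fgf12, with values of 1.26 in Phc2 L307R and 1.28 in wild type, and at 528 kb for Fgf14, with 0.65 and 0.95. Fgf11 read 1.90, 1.40 and 0.87 in Phc2 L307R and 1.95, 1.54 and 1.97 in wild type (-0.43, SD 0.58), and its wild-type value was higher in the value tables (2.80, difference -1.41).

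Receptor promoters had a lower median window (1.01 in Phc2 L307R, 1.19 in wild type) than the ligands and the feedback genes, a difference between classes that was not tested. Of 5 receptor promoters, 3 were bound in each genotype, Fgfr2, Fgfr3 and the decoy-like receptor Fgfrl1, which lacks the kinase. Fgfr2, the epithelial receptor for Fgf7 and Fgf10 in its b isoform, read 2.12, 1.77 and 1.67 in Phc2 L307R and 2.70, 1.89 and 1.60 in wild type. Fgfr3, which limits bone growth, read 1.42, 1.63 and 1.43 in Phc2 L307R and 1.29, 1.86 and 1.94 in wild type, and its difference was -0.20 (SD 0.32) in the scanner values and -0.87 in the value tables. The difference at Fgfr2 was -0.21 in the scanner values and 0.27 in the value tables. Fgfrl1 stood at 1.01 in Phc2 L307R and 1.19 in wild type, just above the cut-off. Fgfr1, the main mesenchymal receptor, was unbound, at 0.071, -0.33 and -0.61 in Phc2 L307R and 0.19, -0.020 and 0.55 in wild type, and so was Fgfr4 at 0.076 and 0.32. All 5 differences lay below 0, from -0.53 at Fgfr1 to -0.17 at Fgfrl1, and 0 met the size rule. Of the 5 value-table differences, 3 lay below 0. Over all promoters, 9617 of 17649 differences were below 0.

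Flrt3 was the single member that met the size rule. It encodes a membrane protein that binds Fgf receptors and guides axons, and its window (chromosome 2, 140361630 to 140362006) read 4.35, 3.53 and 2.23 in Phc2 L307R and 2.25, 2.89 and 1.86 in wild type. All 3 probes were higher in Phc2 L307R, by 1.03 on average, but the SD of 0.93 was close to the difference itself. Input was well above background at 1 of 3 probes in Phc2 L307R and 1 of 3 in wild type. The difference was 0.46 in the same window of the value tables, and it was 0.29 as a mean over all 36 probes. With the window chosen anew, it was -0.17 after normexp background correction and -0.14 when only probes well above background were kept. The latter setting left out probes of the window given above, so it read other probes. Flrt2, its relative, stood at 2.22 in Phc2 L307R and 1.84 in wild type (0.37, SD 0.46), and Flrt1 was unbound at 0.091 and 0.43. The carrier proteins that release Fgf from the matrix had weaker signal. Fgfbp1 read 0.98, 0.76 and 1.34 in Phc2 L307R and 0.48, 0.30 and 0.49 in wild type. Each probe was higher in Phc2 L307R (0.60, SD 0.22), yet the difference at Fgfbp1 in the value tables was -0.026. Fgfbp3 stood at 1.18 in Phc2 L307R and 1.07 in wild type.

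**Figure D4:**
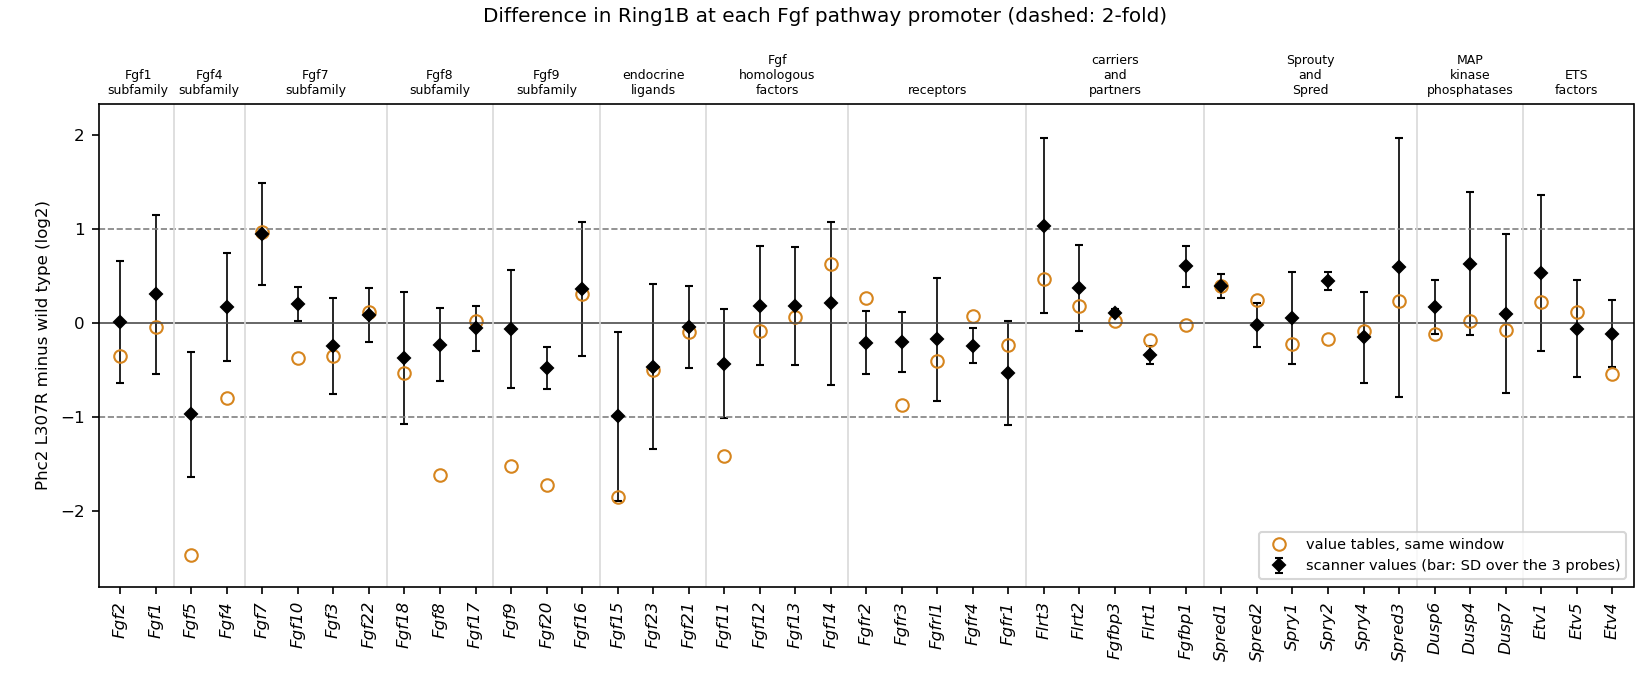
Difference in Ring1B, Phc2 L307R minus wild type (log2), at each promoter. Black diamonds are scanner values with the SD over the 3 probes, orange circles the value tables in the same window, and dashed lines mark 2-fold. Flrt3 alone passes the upper line in the scanner values, at 1.03, and the circles of Fgf5, Fgf8, Fgf9, Fgf11, Fgf15 and Fgf20 lie below the lower line.

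The feedback genes were bound almost throughout and differed little. Of 12 promoters, 10 were bound in both genotypes, with medians of 2.08 in Phc2 L307R and 2.00 in wild type, and the median difference was 0.13 (-0.027 in the value tables). Their signal covered 40.3% of probes at or above 1 in Phc2 L307R and 41.2% in wild type. Spred1, an inhibitor of Ras activation, was the highest, with probes at 2.91, 3.33 and 3.22 in Phc2 L307R and 2.47, 3.09 and 2.73 in wild type (0.39, SD 0.13). Its value-table difference was 0.39. Spred2 read 2.27, 1.69 and 2.28 in Phc2 L307R and 2.54, 1.69 and 2.07 in wild type. Spred3 was unbound, and its window of 0.59 in Phc2 L307R against -0.0014 in wild type rested on 1 probe of 2.74 (SD of the difference 1.38).

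Among the Sprouty genes, which block receptor tyrosine kinase signals upstream of MAP kinase, Spry2 read 2.32, 2.66 and 2.26 in Phc2 L307R and 1.98, 2.18 and 1.74 in wild type. The difference of 0.45 was even over the probes (SD 0.092) but became -0.17 in the value tables. Spry1 had a difference of 0.053 (SD 0.49) and Spry4 one of -0.15 (SD 0.49), with windows at 2.08 and 1.47 in Phc2 L307R and at 2.02 and 1.63 in wild type. The 3 phosphatases that switch off MAP kinases were bound in both genotypes, with medians of 2.67 in Phc2 L307R and 2.04 in wild type. Both medians were the values of Dusp4. The median of the 3 differences was 0.17 in the scanner values and -0.078 in the same windows of the value tables. Dusp6, the ERK-specific phosphatase and a usual readout of Fgf signalling, read 2.98, 2.71 and 2.42 in Phc2 L307R and 2.75, 2.30 and 2.57 in wild type, and 28 of its 40 probes reached 1 in Phc2 L307R and 27 in wild type. Dusp4 read 3.01, 2.95 and 2.05 in Phc2 L307R and 2.17, 1.69 and 2.25 in wild type (0.63, SD 0.76). Its difference in the value tables was 0.025. Over the 9 other settings it lay between -0.48 and 0.63 and was above 0 in 5. Input at the Dusp4 window was well above background at 1 of 3 probes in Phc2 L307R and 1 of 3 in wild type. Dusp7 stood at 1.84 in Phc2 L307R and 1.74 in wild type.

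The ETS factors spanned the range from unbound to well bound. Etv1 read 2.40, 2.82 and 2.61 in Phc2 L307R and 0.91, 2.80 and 2.52 in wild type, so that its difference of 0.53 (SD 0.83) rested on the first probe. Input at this window was well above background at 0 of 3 probes in Phc2 L307R and 2 of 3 in wild type. The difference was above 0 in 6 of the 9 other settings and -0.57 after normexp, with the window chosen anew. Etv1 was among the broadest of the pathway, as 29 of its 47 probes reached 1 in Phc2 L307R and 26 in wild type. Etv5 stood at 1.76 in Phc2 L307R and 1.82 in wild type, with a difference of -0.059 (SD 0.52), and Etv4 was unbound at 0.67 and 0.79.

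RefSeq sequences were found for 32 of the 43 members, with the CpG count averaged where a gene has several starts. Members ran from 4 CpGs per 300 bases at Fgfr2 and Fgfbp1 to 47 at Fgf18. All 11 members with 25 or more CpGs were bound in both genotypes, among them the Fgf5 promoter shown above. Of all promoters with as many, 58.1% were bound in Phc2 L307R and 66.7% in wild type. Across the members, CpG count and window followed each other weakly, with Spearman's rho of 0.14 in Phc2 L307R and 0.23 in wild type (n = 32 promoters, which share arrays). Over all 10269 promoters with a sequence rho was 0.41 and 0.51. The 3 highest members in Phc2 L307R, Fgf9, Fgf7 and Flrt3, have 12, 11 and 8 CpGs in the stretch around the start, where bins of all promoters with 5 to 9 and 10 to 14 CpGs had medians of 0.50 and 0.90.

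**Figure D5:**
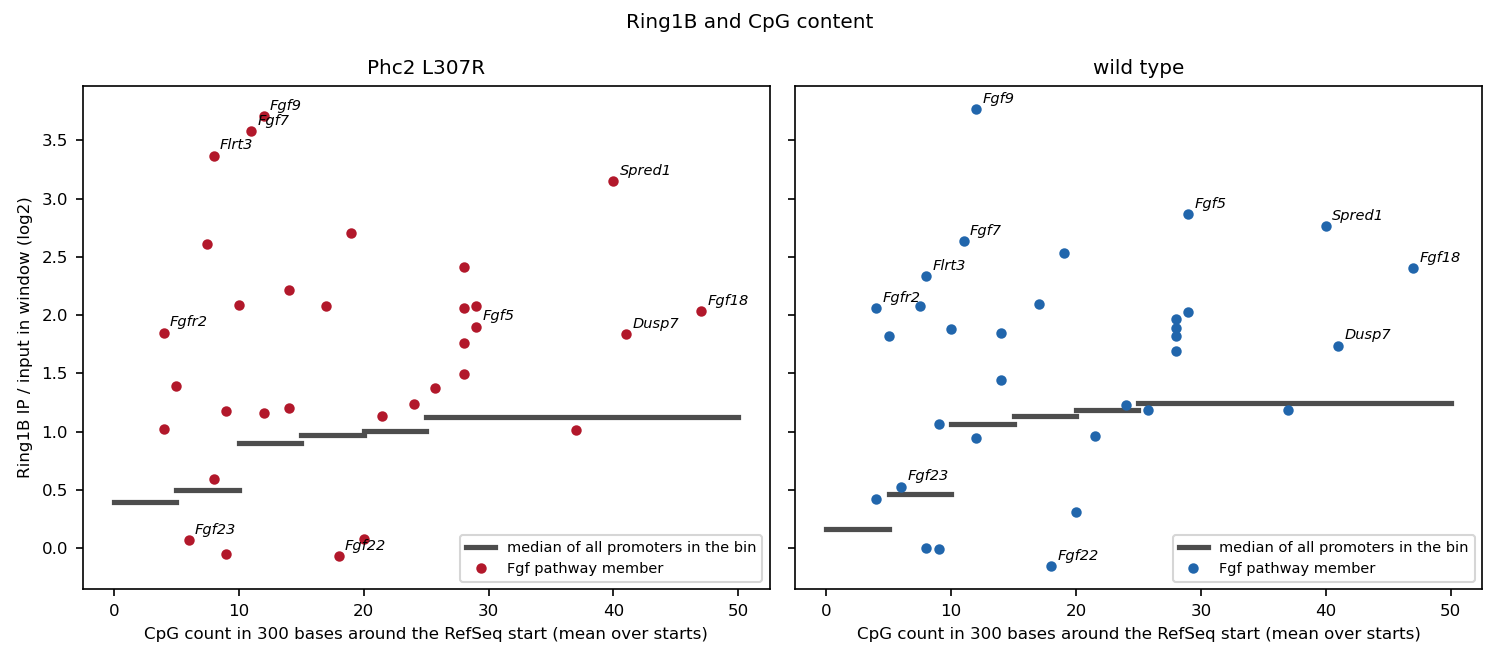
Ring1B window value (log2 precipitate over input) against the CpG count of the 300 bases around the RefSeq start, in Phc2 L307R (left) and wild type (right). Points are the 32 members with a sequence and bars the medians of all promoters in bins of CpG count, the last bin holding all counts from 25 up and drawn to 50. Fgf9, Fgf7 and Flrt3 stand far above the bars of their bins, whereas Fgf22 and Fgf23 do not.

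Other genes of the pathway were listed apart from the members. Of 21 cofactor and heparan sulphate genes, 13 were bound in Phc2 L307R and 15 in wild type, where 39.3% and 45.4% of all promoters were. The 2 highest in wild type were the glypicans Gpc3 (2.55 in Phc2 L307R, 2.46 in wild type) and Gpc4 (2.11 and 2.15). Input at the Gpc3 window was well above background at 0 of 3 probes in each genotype. By the size rule 0 of the 21 genes were lower and 2 higher, where 3.01% and 1.64% of all bound promoters were. The 2 higher were Gpc6 and Sulf1. Gpc6, another glypican, stood at 2.61 in Phc2 L307R and 1.44 in wild type (SD of the difference 0.43). Sulf1, an enzyme that trims heparan sulphate, stood at 2.61 and 1.05 (SD 0.26). Input at the Sulf1 window was well above background at 0 of 3 probes in Phc2 L307R and 2 of 3 in wild type. In the same windows of the value tables the differences were 0.46 at Gpc6 and 0.75 at Sulf1, both short of the size rule. With only probes well above background, which left out probes of both windows, the differences were 0.35 at Gpc6 and -0.25 at Sulf1. Of 15 signal transducers measured of 18 listed, 9 were bound in each genotype and 0 met the size rule in either direction. Nras (2.28 in Phc2 L307R, 2.45 in wild type) and Shc1 (2.85 and 2.33) were the highest in wild type. Input at the Shc1 window was well above background at 0 of 3 probes in Phc2 L307R and 1 of 3 in wild type.

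Genes of the Wnt pathway and of the Bmp and Tgf-beta pathways are set beside the Fgf genes, and no difference between the pathways was tested. Of 41 Wnt pathway promoters, 27 were bound in Phc2 L307R and 26 in wild type, 2 were lower and 2 higher, and the median difference was -0.12. Of 52 Bmp and Tgf-beta promoters, 33 and 35 were bound, 2 were lower and 0 higher, with a median difference of -0.034. Of all promoters, 39.3% were bound in Phc2 L307R and 45.4% in wild type. Among all bound promoters, 3.01% were lower and 1.64% higher. Promoters of genes that mark cell types were read as well. Of 11 measured promoters of fibroblast genes such as Col1a1 and Vim, 10 were bound in each genotype, with medians of 2.29 in Phc2 L307R and 2.07 in wild type. Of the blood cell genes 0 of 4 were bound in either genotype, of the endothelial genes 1 of 5, of the epithelial genes 1 of 3 and of the neural genes 4 of 5.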

How the data were processed

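Ring1B occupancy was measured in Phc2 L307R and wild-type mouse embryonic fibroblasts, with input in Cy3 and the Ring1B precipitate in Cy5, per the labels, and no dye swap among the 4 arrays. Spot intensity values and log10 ratios make up the deposited scanner files, which per the file headers came from Agilent Feature Extraction 10.7.3.1 (background subtraction from negative controls, spatial and multiplicative detrending, linear dye normalization). The value tables deposited by the authors hold log10 ratios, on a scale found by comparison with the scanner files, whose columns have medians of -0.034 and -0.039 in Phc2 L307R and -0.056 and -0.062 in wild type. What was done to the wild-type tables is unknown.

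Ratios from the scanner files were put on a log2 scale, each array was centred at its median, leaving out control spots and probes with an outlier flag on either array of a design. With 1 array per genotype for each promoter, fixed rules of size were used in place of tests. The number of arrays limits the precision. Genes are those the files name. Members and lists were chosen with earlier results of these data known. Named genes are all members, and of the other pathway lists those that met the size rule and the 2 highest in wild type. Alternatives were the value tables, normexp on mean and background signals (offset 50), loess, arrays scaled to the same median absolute deviation, a filter on dim probes, other windows and cut-offs, and probes named for 2 genes. The steps were tested on simulated data. Python 3.11.15 (numpy 2.4.6, pandas 2.3.3, matplotlib 3.10.9) and R 4.3.3 with limma 3.58.1 were used.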

Additional observations from a re-analysis of the deposited data

How the results depend on the processing

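The count of members bound in Phc2 L307R was 33. It was 32 in the value tables (wild type 33), 17 after normexp (wild type 23), 20 at a cut-off of 1.5 (wild type 24) and 10 with the mean over all probes (wild type 10). The share of all promoters bound under these settings is not given here. In the scanner values 0 members were lower and 1 higher. These counts were 6 lower and 0 higher in the value tables, 2 and 0 after arrays were scaled to one spread, 1 and 0 after normexp, and 1 and 0 with probes well above background. They were 0 and 0 with windows of 5 probes, with windows chosen on wild type alone and with the mean over all probes. With probes named for 2 genes they were 1 and 1. A size rule of 1.5-fold gave 2 lower (Fgf5 and Fgf15) and 3 higher (Fgf7, Fgfbp1 and Flrt3), where 13.5% and 6.38% of all bound promoters were. Over all promoters, 271 were lower and 148 higher in the scanner values, against 732 and 52 in the value tables. The counts over all promoters were 424 and 100 with one spread, 198 and 11 after normexp, and 169 and 29 with probes well above background. They were 107 and 46 with windows of 5 probes, 467 and 32 with windows chosen on wild type alone, and 12 and 2 with the mean over all probes. The median difference over members was 0.0086, -0.30 for windows chosen on wild type alone, where all promoters had -0.24, and 0.17 for windows chosen on Phc2 L307R alone, where all had 0.15. It was below 0 in the value tables (-0.13), after normexp (-0.13), with probes well above background (-0.14), with one spread (-0.094) and with windows of 5 probes (-0.070), and above 0 after loess (0.10). The difference at Flrt3 changed sign after normexp (-0.17) and with probes well above background (-0.14), and that at Sulf1 after normexp (-0.17), with probes well above background (-0.25) and in the window chosen on wild type alone (-0.42). Each of these settings chose its window anew, and the filter on dim probes left out probes of both main windows. The differences therefore need not come from the same probes, and the cause was not tested. Of 43 member differences, 9 kept their sign under all 9 settings that recompute them, 8 of them below 0 and 1, Fgf7, above. No paired analysis was possible because the title numbers 1 and 2 stand for array designs that have no probe in common, so each promoter has 1 array per genotype. Signal over background in the input channel limits what these arrays show at promoters with dim input.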

Other observations

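Some probes carry the names of 2 genes, of which 1 belongs to the Fgf pathway, and these lie outside the 43 promoters described above. The probes named for Spred3 and the spermatid gene Ggn stood at 1.45 in Phc2 L307R and 2.70 in wild type. Their difference of -1.25 (SD 0.56) met the size rule, and in the same window of the value tables it was -0.83. The probes named for Spred3 alone were unbound, with the opposite sign (0.59). The probes of Fgf21 and Fut1 stood at 0.85 in Phc2 L307R and 0.11 in wild type, those of Fgfbp3 and Btaf1 at 0.79 and 0.23, and those of Polrmt and Fgf22 at -0.12 and 0.013, all below the bound cut-off.

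Among the members, the 2 versions of wild type lay furthest apart at Fgf5, Fgf9 and Fgf8. At Fgf5 the wild-type window stood at 4.37 in the value table and 2.87 in the scanner values, at Fgf9 at 5.23 and 3.77, and at Fgf8 at 3.44 and 2.05. At Spred1 and Fgf7 the 2 versions were nearly equal, at 2.76 and 2.76 and at 2.61 and 2.63. As table minus scanner, the median over the ligands was 0.35, over the feedback genes 0.28, over the receptors -0.30 and over all promoters -0.018. What made the 2 versions differ was not tested.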
